A study of Mus musculus with 6 samples.

Results

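The genes described here encode proteins of the cytosolic ribosome or their paralogs, 24 named for the large subunit (Rpl) and 22 for the small subunit (Rps). They were measured in peritoneal macrophages of 2 genotypes at 3 times of stimulation. Members were the genes whose symbol is Rpl or Rps followed by a number and at most 1 more letter, together with Rplp0, Rplp1, Rplp2 and Rpsa, wherever a probe set of the array carried that symbol and no other. Pseudogene symbols and the S6 kinases were left out. The rule found 46 genes among 18194 genes with a symbol of their own, on 100 probe sets. Where a gene had several such probe sets, that with the highest mean over 6 arrays stood for it. It entered the tests if it reached an array's median over all probe sets at least once, which held for 13587 genes and for 42 of the 46 members. Rpl3l, Rps16, Rps27 and Rps4l stayed below that floor. The members are a part of the family, since 28 further symbols of the rule occur only on probe sets with several symbols, described below.

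Macrophages had been drawn into the peritoneal cavity with thioglycollate, an irritant, and were taken from wild-type mice and from LysM-Cre+;Akirin2fl/fl mice, both labelled C57BL/6 x 129Sv. In the latter, here Akirin2 KO, Cre recombinase, driven by the lysozyme gene, removes Akirin2, a nuclear protein that takes part in inflammatory gene expression, from myeloid cells only, so other cells of the lavage keep the gene. Cells of each genotype were left unstimulated (0 h) or given lipopolysaccharide (LPS, a bacterial outer membrane component) at 100 ng/ml for 2 or 4 h. The 6 conditions had 1 array each, and the labels give neither the age, sex or number of mice nor say whether the arrays of a genotype share mice. Differences between arrays therefore carry no replicate error, and the p-values below rest on the spread left after time and genotype were fitted together.

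Each ribosome holds a single copy of nearly every one of these proteins, and their messenger RNAs are among the most abundant of a cell. Most begin with a run of pyrimidines (a 5′ TOP motif), through which the kinase mTOR controls their translation rather than their RNA level. Assembly of the subunits depends on a separate set of nucleolar factors, whose genes respond to growth signals such as Myc. Macrophages given LPS make large amounts of new protein, and these arrays follow the transcripts of the machinery that makes it.

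The array labels and cell identity were checked first. Akirin2 read between 7.33 and 7.47 (log2) on the wild-type arrays and between 4.91 and 5.54 on the KO arrays. All 16 named macrophage markers passed the floor, among them Csf1r, the receptor for macrophage colony-stimulating factor, at 12.5 to 12.7, although Itgam (CD11b) read only 3.06 to 3.47 on its probe set. Among markers of other cells, 10 of 11 of mesothelium and fibroblasts passed, 5 of 6 of B cells, 5 of 7 of mast cells, 3 of 8 of neutrophils, 3 of 6 of T and NK cells, 1 of 5 of dendritic cells, 1 of 4 of eosinophils and 0 of 3 of erythroid cells. In a bulk sample, fewer cells of a type and less RNA per cell cannot be told apart.

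Ribosomal protein genes hardly moved on any array. The mean log2 value of the 42 members was 9.54, 9.53 and 9.48 on the wild-type arrays and 9.48, 9.49 and 9.50 on the KO arrays (0, 2 and 4 h in each). The median member spanned 0.23 from its lowest to its highest array, against 0.57 for the 13545 other genes. Rpl12 alone spanned 1 or more (2-fold), or 2.38% of members, where 16.5% of the other genes did. Restricted to probe sets with a mean of at least 8, a boundary chosen after the values were seen, the median range was 0.18 for 36 members and 0.53 for 1554 other genes. In bands of mean level, also chosen afterwards, it was 0.24 for 11 members and 0.56 for 1209 other genes from 8 to 10, and 0.16 for 23 members and 0.41 for 314 other genes from 10 to 12. Above 12 the 2 members, at 0.18 and 0.19, lay near the median of 0.21 for 31 other genes. These medians are descriptions of the lists and were not tested.

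**Figure D1:**
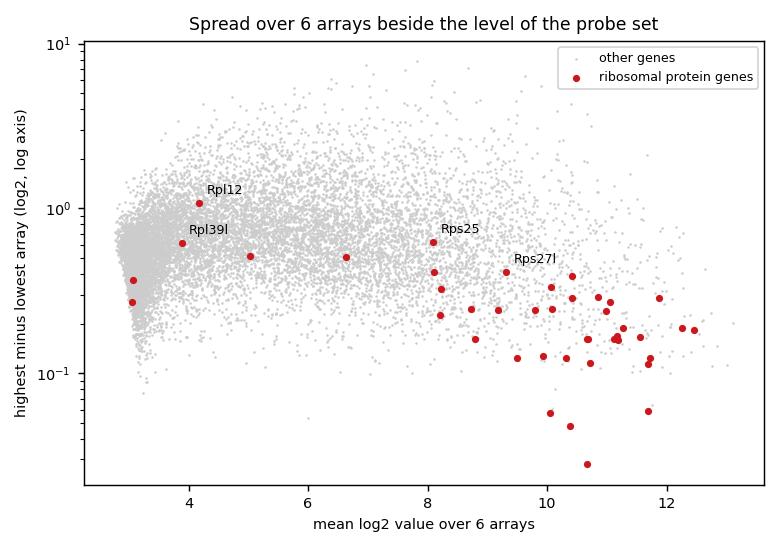
Each point is a gene above the floor; the horizontal axis is its mean log2 value over 6 arrays and the vertical axis, on a log scale, its highest minus its lowest array. Ribosomal protein genes (red) lie along the lower edge at high levels, with a median range of 0.23 against 0.57 for other genes (grey), and Rpl12 has the widest range at 1.07.

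After 2 h of LPS no member passed an adjusted p of 0.05 in limma, where 3.96% of all genes tested were called higher and 2.89% lower. Only Rpl12 had an unadjusted p under 0.05, while 20.3% of all genes did. After 4 h, 1 of 42 members was higher and 0 were lower, against backgrounds of 7.76% and 7.61%. At 4 h 2 members, Rpl12 and Rps27l, had an unadjusted p under 0.05, where 28.2% of all genes did. Between 2 and 4 h again 0 members were called, with 1.56% of genes higher and 1.11% lower in the background, and Rpl12 alone was under 0.05 unadjusted. The median member differed by -0.03 at 2 h and -0.05 at 4 h, beside medians over all genes of -0.04 and -0.03. Of the 42 members, 30 lay below 0 at 2 h and 33 at 4 h, beside 7664 and 7233 of the 13587 genes. Each array was also centred on its median over the genes above the floor. Then 11 members lay below 0 at 2 h and 23 at 4 h, beside 6213 and 6673 genes.

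Single arrays gave the same picture by size. Over the 42 members and 9 pairs of arrays (times within a genotype, and genotypes at a time), 1 difference reached 2-fold, where over all genes and these pairs 1.88% were 2-fold higher and 1.57% lower. It was Rpl12 at 4 h against 0 h in wild-type, a pair with 3.72% of all genes 2-fold higher. At 1.5-fold there were 4 instances, all higher, beside 5.52% higher and 6.13% lower over all genes and pairs. They were Rps25 at 2 h in wild-type (0.62 on the log2 scale, where 5.38% of genes passed), Rpl12 at 4 h against 0 h in both genotypes (1.07 and 0.64, background 8.16% and 10.2%) and Rpl12 at 4 h against 2 h in wild-type (0.61, background 4.43%). No member was 1.5-fold lower in any pair.

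**Figure D2:**
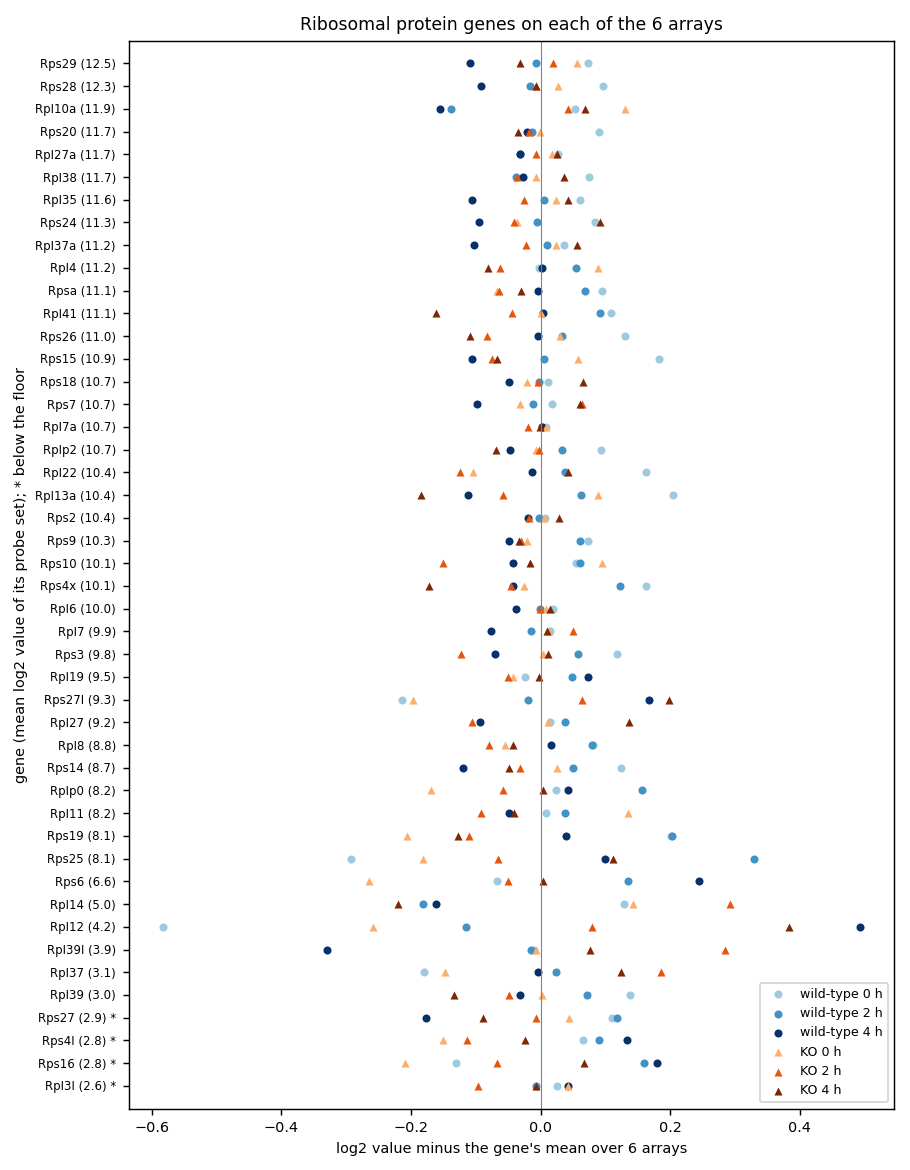
Each row is a ribosomal protein gene, ordered by the mean log2 value of its probe set (in brackets), and each mark is an array, placed at its log2 value minus the gene's own mean; circles are wild-type and triangles Akirin2 KO, darker with time, and an asterisk marks genes below the floor. For most genes all 6 marks lie within 0.2 of the mean; Rpl12 runs from -0.58 at 0 h to 0.49 at 4 h in wild-type.

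The arrays were not alike in the small differences that remained. The unstimulated wild-type array was above the member's own mean for 34 of 42 members and gave the highest value for 20, while the wild-type 4 h array gave the lowest for 16. In wild-type the members' median difference between the 4 h and 0 h arrays was -0.11, with 34 of 42 below 0, beside -0.06 over all genes. In KO it was 0.0081, with 23 of 42 above 0, beside 0.02 over all genes. After renewed quantile normalization the members' median was -0.12 in wild-type, with 35 of 42 below 0. In KO it was -0.04, with 29 below 0. The sign in wild-type thus turned only when arrays were centred, and that in KO with both scalings. With each array centred on its median, which moved the median over all genes at 4 h in wild-type from -0.06 to 0.10, the members' median was 0.06 in wild-type and -0.09 in KO. Under the deposited scaling, renewed quantile normalization and centring alike, the members' median at 4 h against 0 h stood below that of all genes in both genotypes. Centring thus moved the members' medians at 4 h by more than their deposited size.

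Rpl12, which sits with Rplp0 at the base of the stalk that recruits translation factors, was the 1 member called. Its log2 value was 3.60, 4.06 and 4.67 on the wild-type arrays and 3.92, 4.26 and 4.56 on the KO arrays, in order of time. It went up from each time to the next in both genotypes, and no 4 h array overlapped a 0 h array. The fitted difference at 4 h was 0.86 (SE 0.16, adjusted p = 0.00867 in limma, higher in 2 of 2 genotypes), or 1.81-fold, and at 2 h 0.40 (SE 0.16, adjusted p = 0.211). Without the wild-type 4 h array it was 0.67 and no longer called (adjusted p = 0.0715). Rpl12 had this 1 dim probe set to itself. The 2 bright probe sets that list Rpl12 with other symbols, with means of 8.89 and 10.4, differed by 0.05 and 0.02 at 4 h.

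Rps27l, a paralog of the small subunit protein Rps27 known as a p53 target, was higher at 4 h on each of its probe sets. It read 9.11, 9.30 and 9.49 on the wild-type arrays and 9.12, 9.38 and 9.52 on the KO arrays. The order of the times was the same in both genotypes and the genotypes differed by less than the times did. The difference at 4 h was 0.39 (SE 0.14, adjusted p = 0.118 in limma), or 1.31-fold. Its other probe sets gave 0.41 and 0.40. The parent gene Rps27 was near background on its own probe set, at 2.76 to 3.06, but read 11.8 on the probe set that lists it with Rps27rt, which differed by -0.20 at 4 h.

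Rps25, a small subunit protein needed by some internal ribosome entry sites, read 7.80, 8.42 and 8.19 on the wild-type arrays and 7.91, 8.03 and 8.20 on the KO arrays. The wild-type 2 h array stood highest, and every stimulated array was above both unstimulated ones. The differences were 0.37 at 2 h (SE 0.17, adjusted p = 0.28) and 0.34 at 4 h (SE 0.17, adjusted p = 0.239 in limma). The far brighter probe set that lists Rps25 with another symbol, mean 12.5, differed by 0.0024 at 4 h. Rps6, the target of the S6 kinases that report mTOR activity, read 6.57, 6.77 and 6.88 on the wild-type arrays and 6.37, 6.58 and 6.64 on the KO arrays. Its difference at 4 h was 0.29 (SE 0.14, adjusted p = 0.237), and 4 bright probe sets that list Rps6 among several symbols lay between -0.04 and 0.04. Rpl37, near background at a mean of 3.06, differed by 0.27 at 2 h and 0.22 at 4 h (adjusted p = 0.361 and 0.372).

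On the other side, Rpl13a was lower at 4 h on each of its probe sets. Rpl13a is a large subunit protein that, released from the ribosome, represses inflammatory transcripts in the interferon-activated inhibitor of translation (GAIT) complex of myeloid cells. It read 10.62, 10.48 and 10.31 on the wild-type arrays and 10.51, 10.36 and 10.24 on the KO arrays. Each genotype stepped down with time, and both 4 h arrays lay below both 0 h arrays. The difference was -0.14 at 2 h and -0.29 at 4 h (SE 0.14, adjusted p = 0.229 in limma), and the other 3 probe sets gave -0.24, -0.29 and -0.33 at 4 h. A further fit let the variance depend on the level (eBayes with trend and robust). It called Rpl13a (adjusted p = 0.00783) and Rps27l (adjusted p = 0.00392) at 4 h, and Rpl12 with them. This model called more genes in other lists too, for ribosome biogenesis 21 of 42 at 4 h in place of 17. The share of all genes it called is not given here, so these calls are not read as particular to the members. In the main fit 7.76% of all genes were higher at 4 h and 7.61% lower.

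Rpl14, on a dim probe set, read 5.15, 4.84 and 4.86 on the wild-type arrays and 5.17, 5.32 and 4.81 on the KO arrays. The genotypes went apart at 2 h and were both lower at 4 h (-0.33, SE 0.18, adjusted p = 0.275), and the 5 bright probe sets that list Rpl14 with other symbols ranged from -0.24 to 0.04. Rps15, a protein of the small subunit head, differed by -0.16 at 2 h and -0.21 at 4 h (SE 0.15, adjusted p = 0.414). Rps4x, encoded on the X chromosome, differed by -0.18 at 4 h (adjusted p = 0.485). The largest negative differences at 2 h after Rps15 were those of Rpl13a, Rpl10a (-0.14) and Rps10 (-0.12).

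The promoters of the 3 members with the largest positive and of the 3 with the largest negative difference at 4 h are printed so that the windows at both ends of the range can be set side by side. They are RefSeq sequences on GRCm38.p6 from 100 bases before the annotated start through the first 30 transcribed bases, written 5′ to 3′ on the gene's strand. Capitals mark CCGGAAG, the core of binding sites for ETS factors such as Gabpa, on either strand, and runs of at least 8 pyrimidines.
Rpl12, chr2:32961612-32961741, plus strand: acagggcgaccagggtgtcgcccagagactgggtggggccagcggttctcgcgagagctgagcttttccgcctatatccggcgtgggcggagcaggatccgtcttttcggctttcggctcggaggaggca
Rps27l, chr9:66945986-66946115, plus strand: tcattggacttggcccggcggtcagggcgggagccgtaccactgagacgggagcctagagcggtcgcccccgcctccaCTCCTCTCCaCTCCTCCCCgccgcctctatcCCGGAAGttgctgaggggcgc
Rps25, chr9:44407614-44407743, plus strand: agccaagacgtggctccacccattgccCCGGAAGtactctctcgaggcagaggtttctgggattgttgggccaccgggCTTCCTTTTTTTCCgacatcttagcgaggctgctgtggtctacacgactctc
Rpl14, chr9:120571417-120571546, plus strand: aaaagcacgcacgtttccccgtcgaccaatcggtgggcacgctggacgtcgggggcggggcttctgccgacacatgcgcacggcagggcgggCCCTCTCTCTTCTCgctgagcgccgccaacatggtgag
Rpl13a, chr7:45128716-45128845, minus strand: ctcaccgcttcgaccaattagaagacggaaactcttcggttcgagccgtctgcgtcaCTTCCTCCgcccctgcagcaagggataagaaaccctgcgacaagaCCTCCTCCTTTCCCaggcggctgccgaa
Rps15, chr10:80292331-80292460, plus strand: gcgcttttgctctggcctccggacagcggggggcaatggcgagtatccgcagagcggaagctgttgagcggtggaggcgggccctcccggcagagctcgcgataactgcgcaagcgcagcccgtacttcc
The ETS letters stood in the printed stretch of Rps27l and Rps25, and pyrimidine runs in those of Rps27l, Rps25, Rpl14 and Rpl13a. Rpl12 and Rps15 held neither within these 130 bases.

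Over 300-base windows (250 before to 50 after the start), 40 of the 46 members matched a RefSeq promoter. CCGGAAG occurred on either strand in 20 of the 40, or 50%, against 9.93% of 27025 genes and 18% of the 10888 matched genes above the floor. CCATCTT, the core of YY1 sites, was in 17.5% of members, 7.28% of genes and 8.12% of those above the floor. TATAAA was in 12.5% of members, between the 15.7% of genes and the 10.3% of those above the floor. A start with C followed by at least 4 of C or T, the strict TOP form, was annotated for 8 members (20%). It was annotated for 3.01% of genes and 2.93% of those above the floor. The match was made at the annotated first base only, so a TOP start some bases away from it was not counted. A run of at least 8 pyrimidines on the gene's strand, from 50 bases before to 30 after the start, a search added after the values were seen, was found for 27 members (67.5%), 33.6% of genes and 32.9% of those above the floor. CCATCTT and TATAAA were also searched on both strands, and a TOP start may lie inside a pyrimidine run. These are matches of letters, not sites, and they were set beside no expression value.

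Members that stand together in the ribosome are given next by role. In the stalk, Rplp0 read 8.24, 8.37 and 8.26 on the wild-type arrays and 8.05, 8.16 and 8.22 on the KO arrays, a difference of 0.10 at 4 h (adjusted p = 0.73), while Rplp2 differed by -0.10 (adjusted p = 0.706). The 0.86 of Rpl12 came from its dim probe set, and the 2 bright ones that list it differed by 0.05 and 0.02, between Rplp0 and Rplp2. Rplp1 had no probe set to itself. Rpl11, which with Rpl5 and the 5S RNA forms the particle that restrains Mdm2 under ribosomal stress, differed by -0.12 at 4 h (adjusted p = 0.672). At the rim of the exit tunnel, Rpl19, Rpl22, Rpl35 and Rpl39 had a median difference of -0.04 at 4 h. Rps3, a protein at the mRNA entry channel also described as a partner of NF-kB, differed by -0.09 (adjusted p = 0.75). Rpsa, first described as a laminin receptor, differed by -0.03 (adjusted p = 0.921).

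The members with the brightest probe sets differed little. Rps29 (mean 12.5), Rps28 (12.3), Rpl10a (11.9), Rps20 (11.7) and Rpl27a (11.7) differed at 4 h by -0.14, -0.11, -0.13, -0.07 and -0.02, with SEs of 0.14 to 0.15. The smallest range over the 6 arrays was that of Rpl7a, which read 10.66 to 10.68. The 23 large subunit members had a median of -0.05 at 4 h and the 19 small subunit members -0.07. By order of values, 6 members (14.3%) had both 4 h arrays above both 0 h arrays, where 23.3% of all genes did, and 16 (38.1%) had them below, where 26.8% did. At 2 h the counts were 5 above (11.9%, background 19.1%) and 13 below (31%, background 25.8%).

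Paralogs made mainly in other tissues stayed low. Rpl3l, the heart and skeletal muscle form of Rpl3, read 2.47 to 2.61 and Rps4l 2.67 to 2.95, both under the floor, and Rpl39l, a form known from testis, 3.56 to 4.17. Rpl39 itself, at 2.91 to 3.19, and Rps16, at 2.56 to 2.94, were as dim on their own probe sets. Yet the probe set that lists Rpl39 with other symbols read 11.3, the 2 that list Rps16 read 10.9 and 11.7, and 2 bright ones that list Rpl37 read up to 11.3. A value near background here therefore describes a probe set and not the gene. Rpl7l1 and Rpl22l1, ribosomal paralogs outside the symbol rule, differed by 0.37 (SE 0.15, adjusted p = 0.149) and 0.25 (SE 0.15, adjusted p = 0.31) at 4 h.

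Probe sets of the same gene could disagree. Rps24 was represented by a bright probe set (mean 11.3) with a difference of -0.03 at 4 h, and 3 further bright ones gave -0.03 to 0.03. A dim probe set of Rps24, mean 3.87, read 3.26, 3.96 and 3.87 on the wild-type arrays and 3.34, 4.26 and 4.52 on the KO arrays, differences of 0.81 at 2 h and 0.90 at 4 h. It was above its 0 h value on all 4 stimulated arrays. Rps24 is spliced in several ways at its end, and the stretch of the transcript read by each was not analysed here. If probe sets whose names end in _x_at or _s_at, which can bind related transcripts, were left out, this dim probe set represented Rps24. The gene was then called at both times (adjusted p = 0.0274 and 0.00869).

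Ribosomal protein genes have many processed pseudogenes, and much of the family lay on probe sets with more than 1 symbol. A further 110 probe sets list a symbol of the rule beside others, 28 rule symbols occur only there, and 15 members occur there as well. Of these probe sets 105 passed the floor. In a fit over all 30375 probe sets above the floor, added after the values were seen, 0 of the 105 were called at 2 h (background 3.16% higher and 1.8% lower). At 4 h 1 was higher (background 5.78%) and 0 were lower (5.23%). The 1 called lists Gm9385 and Rpl24, and read 10.1, 10.6 and 10.8 on the wild-type arrays and 10.2, 10.4 and 10.7 on the KO arrays, a difference of 0.59 (adjusted p = 0.0393 in limma). A dimmer probe set with the same symbols, mean 3.84, differed by 0.26 (adjusted p = 0.493). The median of the 105 was -0.03 at 2 h and -0.07 at 4 h, beside -0.03 and -0.05 for the members. For genotype 0 were called (background 0.602% higher and 0.718% lower), and for the interaction 0 as well (0% and 0.00658%).

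**Figure D3:**
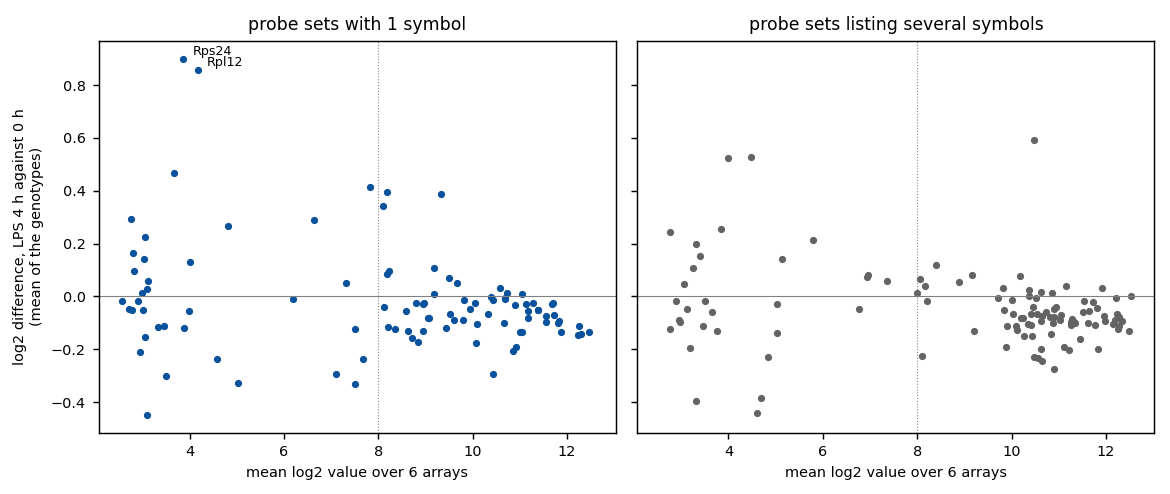
Each point is a probe set carrying a ribosomal protein symbol, alone (left, 100 probe sets) or with other symbols (right, 110); the horizontal axis is the mean log2 value over 6 arrays and the vertical axis the log2 difference of LPS 4 h against 0 h averaged over the genotypes. Probe sets with a mean of at least 8 (right of the dotted line) crowd near 0, with medians of -0.06 (left) and -0.08 (right), and the points furthest from 0 in the left panel, Rps24 at 0.90 and Rpl12 at 0.86, are dim. In the right panel the point furthest from 0, the probe set listing Gm9385 and Rpl24 at 0.59, is bright, with a mean of 10.5.

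Differences between the genotypes were small as well. Over the 3 times 0 of 42 members were called in limma, beside 0.891% of all genes higher and 1.06% lower in KO, and 1 member had an unadjusted p under 0.05 where 15.4% of genes did. That member was Rps19, a small subunit protein whose loss causes Diamond-Blackfan anaemia. It read 8.31, 8.32 and 8.15 on the wild-type arrays and 7.91, 8.003 and 7.99 on the KO arrays, so every KO array was below every wild-type array. The difference was -0.30 (SE 0.12, adjusted p = 0.296). A probe set near background that lists Rps19 with another symbol, mean 3.24, differed by 0.06. The next were Rps6 (-0.21, adjusted p = 0.455), Rps4x (-0.16, adjusted p = 0.568) and Rplp0 (-0.15, adjusted p = 0.613). For Rps6, the 4 bright probe sets that list it among several symbols lay between -0.11 and -0.02. The largest positive differences were those of Rpl39l (0.24, adjusted p = 0.447), Rpl10a (0.16), Rpl14 (0.14) and Rpl12 (0.14). Of these, Rpl39l, Rpl14 and Rpl12 were read on dim probe sets, with means of 3.88, 5.03 and 4.18. Between the genotypes the 2 bright probe sets that list Rpl12 with other symbols differed by -0.06 and -0.02. The 5 bright ones that list Rpl14 lay between -0.12 and 0.0043.

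Without overlap between genotypes, 5 members were lower in KO (Rpl41, Rpl8, Rplp0, Rps19 and Rpsa, 11.9%, where 6.2% of all genes were) and Rpl39l was higher (2.38%, where 6.09% were). The median difference over the members was -0.02, beside -0.01 over all genes. For the unstimulated arrays it was -0.04, after 2 h -0.06 and after 4 h 0.03, beside -0.07, 0.0043 and 0.03 over all genes. With arrays centred, these medians were 0.12, -0.06 and -0.08, so that the sign held only at 2 h. At 0 and 2 h the 19 small subunit members had medians of -0.09 and -0.08 and the 23 large subunit members -0.01 and -0.03, a contrast that was not tested.

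**Figure D4:**
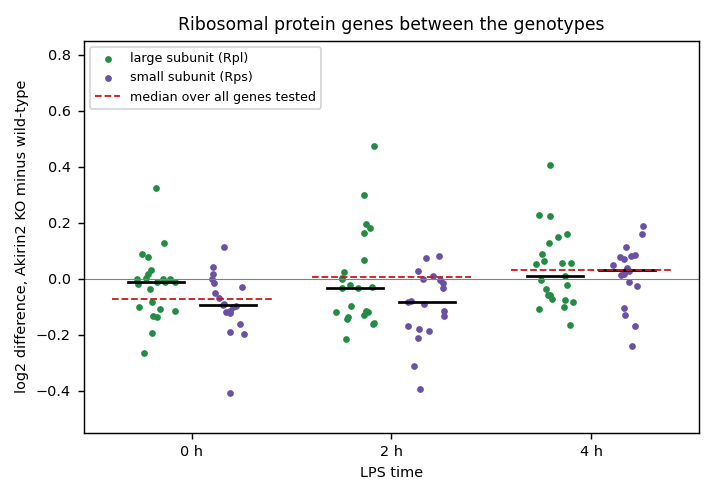
Each point is a ribosomal protein gene above the floor, placed at its log2 value in Akirin2 KO minus that in wild-type at 0, 2 and 4 h of LPS; large subunit genes are green and small subunit genes purple, black bars are their medians and the red dashed lines the median over all genes tested. The small subunit's medians are -0.09, -0.08 and 0.03 in order of time, and single genes spread from -0.41 to 0.47.

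Other measures moved with genotype on the same arrays. The difference between the 3′ and 5′ probe sets of Actb, which is larger where RNA is more degraded, was 4.09 to 4.22 in wild-type and 4.36 to 4.64 in KO, while that of Gapdh was 4.33 to 4.42 and 4.34 to 4.52. On every array the gap was thus at least 4.09 (log2) for both genes. In order of time that of Actb fell in both genotypes (4.22, 4.16 and 4.09 in wild-type, 4.64, 4.50 and 4.36 in KO), and that of Gapdh did not. Its part in the LPS differences was not tested. Over all genes 0.891% were called higher and 1.06% lower in KO, and 7102 of 13587 lay below 0. Of 16 macrophage markers 3 were called lower in KO, C1qa (-1.08), Fcgr1 (-0.89) and C1qc (-0.71), and 13 lay below 0. Their summed level ran from 14.53 to 14.68 (log2) in wild-type and 14.57 to 14.64 in KO. Of 10 mesothelial and fibroblast markers above the floor 1, Col1a2 (-0.83), was called lower and 9 lay below 0, with a summed level of 9.67 to 9.86 in wild-type and 8.97 to 9.27 in KO, and the mesothelial markers Msln and Upk3b were near background on all arrays. Of 3 T and NK cell markers above the floor Cd28 was called higher in KO (1.19), and the list's summed level was 5.86 to 5.87 in wild-type and 5.84 to 6.26 in KO. The part of these shifts in the differences of Rps19 and the other members was not tested.

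Whether LPS acted differently on the members in the 2 genotypes was asked with an interaction of genotype and stimulation. It called 0 of 42 members in limma, beside 0.00736% of all genes higher and 0.0221% lower, and 0 members had an unadjusted p under 0.05 where 12.8% of genes did. The median over the members was 0.07 and that over all genes 0.10, positive meaning a more positive response in KO. The values furthest from 0 were 0.35 for Rpl39l (SE 0.25, adjusted p = 0.604), 0.22 for Rpl22, 0.20 for Rps24 and 0.19 for Rpl14, and -0.30 for Rps25 (SE 0.27, adjusted p = 0.685), -0.28 for Rpl12, -0.19 for Rpl4 and -0.19 for Rpl11. With 1 residual degree of freedom the SE of about 0.25 is larger than most of the members' LPS differences.

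Other genes of the translation system were read from lists on the same fits. Ribosome biogenesis factors process ribosomal RNA and assemble the subunits in the nucleolus. At 2 h 2 of 42 were higher, near the 3.96% of all genes that were. At 4 h 17 were higher and 0 lower, where 7.76% and 7.61% of all genes were. Rrs1, which brings Rpl5 and Rpl11 into the pre-ribosome, read 8.03, 9.49 and 9.65 on the wild-type arrays and 8.26, 9.63 and 9.76 on the KO arrays. It was already high at 2 h on both arrays. It rose by 1.42 at 2 h (SE 0.15, adjusted p = 0.000825) and by 1.56 at 4 h (SE 0.15, adjusted p = 0.000239 in limma). Nop58, a box C/D small nucleolar RNP core protein, was the other one called at 2 h (0.73). At 4 h Utp20 (0.95) of the small subunit processome, Nhp2 (0.89) of box H/ACA RNPs and Bysl (0.82), needed for 40S maturation, followed.

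The list's median at 4 h was 0.43, and 40 of its 42 genes lay above 0. In single arrays the median at 4 h was 0.38 in wild-type and 0.57 in KO. The count fell to 8 without the KO 4 h array and to 10 without the wild-type 4 h array. At 2 h it ran from 1 to 3 as single arrays were left out. The shares of all genes called with an array left out are not given here, so the lower counts are not read as particular to this list. In KO against wild-type 0 genes of the list were called, where 0.891% of all genes were higher and 1.06% lower.

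Initiation factors counted 2 higher and 1 lower of 26 at 2 h. At 4 h 6 of them were higher and 1 lower. Over all genes the shares were 3.96% and 2.89% at 2 h and 7.76% and 7.61% at 4 h. Eif4e, the cap-binding protein, rose by 1.19 at 4 h (SE 0.15, adjusted p = 0.00109 in limma) and Eif6, which keeps the large subunit from joining too early, by 1.001 (SE 0.15, adjusted p = 0.00274). Eif4ebp2, an inhibitor of Eif4e, fell by 0.92 (SE 0.15, adjusted p = 0.00375), and Eif2b3, a subunit of the exchange factor for eIF2, was higher by 0.81. Without the wild-type 2 h or the KO 2 h array the 2 h calls were 0. Of 18 regulators of growth and ribosome production, 2 were higher at 4 h, Larp1 (0.95), the binder of TOP messenger RNAs, and Gabpa (0.63), an ETS factor, and 2 lower, the Myc antagonist Mxi1 (-1.35) and the mTOR inhibitor Tsc1 (-0.61), counts near the shares of all genes. Leaving out single arrays left 1 to 2 of them on each side.

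Other genes with TOP messenger RNAs, such as elongation factors and eIF3 subunits, gave small differences too. Of 18 measured, 0 were called at either time in limma, and the median was -0.04 at 2 h and -0.13 at 4 h. With trend and robust in eBayes 3 were lower at 4 h. That fit called more genes in other lists too, and its share of all genes is not given here. The count is therefore not read as a fall particular to these genes. The largest differences at 4 h were Eif4b (-0.48, SE 0.17, adjusted p = 0.106), Hnrnpa1 (0.35), Eif3k (-0.31) and Eif3f (-0.30). Proteins of the mitochondrial ribosome, a list added after the members' values were seen, counted 3 higher and 1 lower of 75 at 4 h, fewer than the 7.76% and 7.61% of all genes would give. They were Mrpl52 (0.86), Mrpl39 (0.78), Mrpl47 (0.65) and Mrpl41 (-0.65). Without the wild-type 0 h array that count was 8 higher and 0 lower, and without the KO 0 h array 2 and 4. Shares of all genes called with single arrays left out are not given here, so changes of the lists' counts in those fits are not read as particular to a list. The lists were compared by their counts and medians only.

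**Figure D5:**
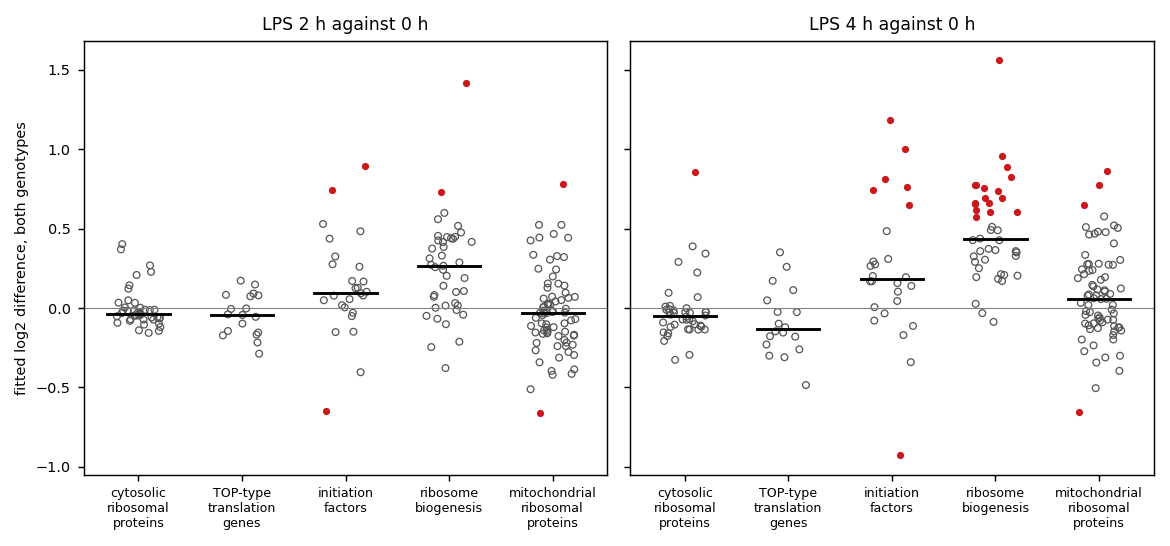
Each point is a gene above the floor, placed at its fitted log2 difference of LPS 2 h (left) or 4 h (right) against 0 h over both genotypes; filled red points passed an adjusted p of 0.05 in limma and black bars are list medians. At 4 h the medians were -0.05 for the 42 cytosolic ribosomal protein genes with 1 called, -0.13 for TOP-type translation genes with 0 called and 0.43 for ribosome biogenesis with 17 of 42 called.

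Cell type markers also differed with LPS on these arrays. Over all genes 7.76% were called higher and 7.61% lower at 4 h, and 7233 of 13587 lay below 0. Of 16 macrophage markers 3 were higher and 6 lower at 4 h in limma, with a median of -0.28. Among them were the mannose receptor Mrc1 (-1.46), the efferocytosis receptor Mertk (-1.64) and the LPS co-receptor Cd14 (1.53). Of 5 B cell markers above the floor 0 were called and 5 lay below 0, and their summed level was 7.20 and 7.11 (log2) at 0 h and 6.79 and 6.78 at 4 h in wild-type and KO. The summed level of 8 neutrophil markers, of which 3 passed the floor, was 8.42 and 8.50 at 0 h and 9.34 and 9.17 at 4 h. S100a8, a calcium-binding protein, was called higher (1.26), its partner S100a9 differed by -0.46 and Camp by 0.45, neither called. Their part in the LPS differences was not tested.

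The genes whose course over the 6 arrays was most like the members' mean were Sil1 (Pearson r = 0.989), Trib3 (0.984), Tfb2m (0.982), Fkbp2 (0.981) and Lrrc27 (0.98), among 8255 genes outside the list with a range of at least 0.5. They were chosen for this likeness over only 6 arrays that share their normalization, so r is a description. Fkbp2, for example, read 6.47, 6.29 and 5.61 on the wild-type arrays and 5.63, 5.63 and 5.81 on the KO arrays, high on the wild-type 0 and 2 h arrays, as the members' mean was.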

How the data were processed

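Expression was measured on 6 arrays, 1 for each of 2 genotypes at 0, 2 and 4 h of LPS. The authors deposited log2 values, 1 per probe set and array, and the submitters' processing notes name RMA, a method that corrects background, equalizes the arrays' quantiles and summarises probes. Its version is not given in the sources used here. Values ran from 2.26 to 14.2 over 45101 probe sets. Arrays have no read depth; with 6 of them, their number limits the precision.

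In the platform annotation 34958 probe sets had 1 symbol, 932 several and 9211 are unnamed here. Each gene took its probe set with the highest mean, and 13587 genes reached an array's median over all probe sets on at least 1 array. Tests used limma 3.58.1 in R 4.3.3 (lmFit, eBayes) with Benjamini-Hochberg adjustment over those genes at 0.05. LPS time and genotype were additive terms, leaving 2 residual and 6.35 prior degrees of freedom; the interaction fit had 1 and 11.5. A genotype p-value here rests on agreement over 3 times and not on separate mice. Single arrays were compared by size, at 2-fold and 1.5-fold. The procedure was also run on simulated data, the outcome of which is not given here.

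Members and lists were chosen with earlier results of these data known. Members named are those past the threshold, the 4 largest differences each way in a comparison, the 5 highest and lowest means, a set picked for its roles and paralogs, and those whose probe sets disagree by over 0.5; other lists are named by their 4 largest differences. Genes of like course are the 5 with the highest r. Rpl5, Rplp1, Rpl3 and Rpl10 have no probe set of their own symbol alone here, and Rps27a and Rpl10l were not analysed here. Promoters came from RefSeq on GRCm38.p6, matched by symbol. Alternatives were no floor or a higher one, averaging probe sets, dropping cross-hybridising probe sets (_x_at, _s_at), renewed normalization, centring, another variance model and leaving out arrays.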

Additional observations from a re-analysis of the deposited data

Results flagged for a closer look

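For 5 of 42 members (11.9%, where 16.4% of all genes did) the LPS differences at 2 and 4 h had 1 sign in wild-type and the opposite sign in Akirin2 KO. Rpl39l had the largest interaction of genotype and stimulation, 0.35 (adjusted p = 0.604 in limma), where the wild-type differences were -0.0045 and -0.32 and those of KO 0.29 and 0.08, on a dim probe set. For Rpl4 the interaction was -0.19 (adjusted p = 0.803), where they were 0.06 and 0.003 against -0.15 and -0.17. Rps7 had 0.17, Rps18 0.088 and Rpsa 0.081, with adjusted p-values of 0.834, 0.918 and 0.923. None of these interactions passed the threshold, and each response is 1 array against another.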

How the results depend on the processing

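The count of members called at 4 h was 1; it was 3 with eBayes using trend and robust, 2 without probe sets ending in _x_at or _s_at, and 0 to 1 with single arrays left out (0 without the wild-type 4 h array). Without those probe sets 1 member was called at 2 h and 2 were 2-fold apart, in both cases through the dim probe set of Rps24, whose differences turned from negative to 0.81 at 2 h and 0.90 at 4 h. In the main setting 7.76% of all genes were higher at 4 h and 7.61% lower. The shares under the alternatives are not given here, so these counts are not read as more or less response of the members. The 1.5-fold rule gave 4 instances. The members' median at 2 h, -0.034, was -0.031 with no floor, -0.016 with probe sets averaged, -0.028 without _x_at and _s_at probe sets, -0.067 after quantile normalization again and 0.033 with arrays centred; the cause was not tested. The other 76 recomputed counts and medians stayed on their side of the threshold or within the limits set for them.

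Among single members named for their size, 394 recomputed values kept their direction and their side of the threshold and 17 changed sign, none of which is called under the main setting. Those of Rps24 at 2 and 4 h were 0.11 and 0.14 with probe sets averaged, 0.0202 and 0.0081 with arrays centred, and with single arrays left out from -0.145 to 0.0502 at 2 h and from -0.158 to 0.106 at 4 h; its interaction was -0.0184 with arrays centred. The genotype difference of Rps6 was 0.0224 with probe sets averaged. For Rpl14 the interaction was -0.0062 after quantile normalization again and -0.0208 with arrays centred, and its genotype difference lay between -0.0217 and 0.245 with single arrays or times left out. For Rps10 the 2 h difference lay between -0.242 and 0.0034 with single arrays left out. Rpl12 was called at 4 h in every setting run but 1, with adjusted p from 0.00324 to 0.0715.

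No paired analysis was possible because the labels give no replicate numbers; the additive fit already compares times within a genotype and genotypes at a time. With 1 array per condition, differences between mice or preparations cannot be told apart from those of genotype and time. The largest positive difference at 4 h among the members, that of Rpl12, comes from a dim probe set, where signal over background limits the precision.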
